A study of Nothobranchius furzeri with 8 samples.

Results

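The miRNA families mir-130, mir-301 and mir-454, which share 1 seed, were followed in the brain of the turquoise killifish, a short-lived annual fish, at a later and an earlier adult age. They are 3 of the 324 features in the count table, taken by name, and all 3 passed the filter on low counts that left 212 features for testing. A TruSeq small RNA kit was used on brain total RNA of males of the strain MZM-04/10p, giving 4 libraries at 26 weeks of age and 4 at 6 weeks, with no treatment or mutation in their labels. Titles of the older libraries hold the number 22, and the age label of 26 weeks was followed. Separate fish are not stated as the source of the libraries, so a p-value reflects only how far these libraries scatter, which may be technical.

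A miRNA guides the silencing complex to messenger RNAs mainly through its seed, a short stretch near its 5′ end. Families with the same seed are therefore expected to recognise largely the same target sites, and they differ in the rest of the mature strand and in the genes that encode them. In the human genome the genes for miR-301a and miR-454 lie next to each other in an intron of SKA2, a gene of the mitotic spindle and kinetochore, miR-130b and miR-301b form another cluster, and miR-130a stands apart. Known targets in mammals include the adipogenic regulator PPARG for miR-130, and miR-130a represses GAX and HOXA5 in human endothelial cells. The positions of the killifish genes are not used here.

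Totals ran from 3347810 to 5715409 counts at 26 weeks and from 2992917 to 4151620 at 6 weeks, so the older libraries were on average the deeper ones. Levels are given in CPM, counts brought to 1 common library size and scaled by trimmed means (TMM), with factors from 0.861 to 1.11 at 26 weeks and from 1.02 to 1.16 at 6 weeks. The neuronal families mir-9 and mir-128 were among the most abundant features, at ranks 4 and 5 at 26 weeks and ranks 3 and 4 at 6 weeks, as is known of brain tissue. The neuronal mir-124, known as very abundant in mammalian brain, was at rank 21 at 26 weeks and rank 27 at 6 weeks. The lowest count of any member was 1769, for mir-454 in the 26-week library I, which gives a share of the library of 0.0528% (95% Wilson interval 0.0504 to 0.0554%, counting error only). Counting error was therefore small beside the spread between libraries.

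The members parted with age. The family mir-454 fell to 0.617-fold at 26 weeks, the level of mir-301 was 0.794-fold without passing the test, and that of mir-130 was 1.07-fold. The most abundant member thus showed no settled change, and the least abundant one was lower. The within-library count ratios of mir-454 to both relatives and of mir-301 to mir-130 were lower in all 26-week libraries than in all 6-week libraries. Ratios of 19.0% of all pairs of tested features also kept the ages apart.

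**Figure D1:**
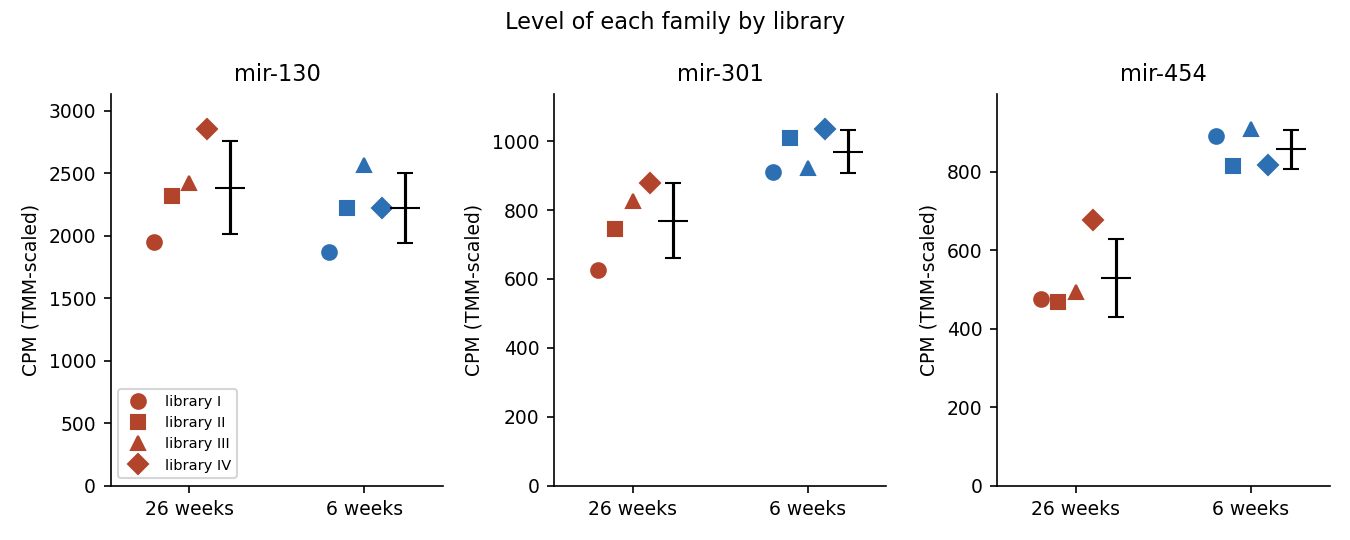
TMM-scaled CPM (linear axis from 0) of the 3 families in the 4 libraries at 26 weeks (left, red) and the 4 at 6 weeks (right, blue), with marker shapes for the library numbers and black bars for the mean ± SD. The ages overlap for mir-130 and do not overlap for mir-301 and mir-454, and the 26-week library IV (676 CPM) stands above the other older libraries for mir-454.

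The family mir-130 had the most counts of the 3 rows, which may join arms with and without the seed and may split reads between relatives. It held 1947, 2317, 2418 and 2852 CPM in the 26-week libraries I to IV, against 1872, 2221, 2562 and 2222 CPM in the 6-week libraries I to IV. The ages overlapped, with the lowest value at 6 weeks and the highest at 26 weeks. Its mean was 2384 ± 372 CPM at 26 weeks and 2219 ± 282 CPM at 6 weeks (SD, n = 4 each), which placed it at ranks 35 and 36 of the 324 features. The log2 fold change was 0.10 ± 0.15 (SE) with a 95% interval from -0.25 to 0.45, and it did not pass edgeR's quasi-likelihood test (Benjamini-Hochberg adjusted p = 0.708 over the 212 features). Its sign turned with total counts alone (-0.12) and with upper-quartile factors (-0.074), so mir-130 has no settled direction.

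The family mir-301 held 626, 746, 825 and 879 CPM in the 26-week libraries I to IV, against 909, 1010.4, 922 and 1035 CPM in the 6-week libraries. Each older library lay below each younger one, by a small margin between the 26-week library IV and the 6-week library I. The means were 769 ± 109.7 CPM at 26 weeks and 969 ± 62.7 CPM at 6 weeks (SD, n = 4 each), at ranks 58 and 50. The log2 fold change was -0.33 ± 0.15 (SE, 95% interval -0.66 to -0.00391), and it did not pass after adjustment (edgeR, Benjamini-Hochberg adjusted p = 0.166, unadjusted p = 0.0478). It passed with total counts in place of TMM (log2 -0.57, edgeR, Benjamini-Hochberg adjusted p = 0.0129), a setting in which 5.66% of all features were called lower.

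The family mir-454, restricted to vertebrates as far as it is known, held 475, 469, 494 and 676 CPM in the 26-week libraries I to IV, against 889.7, 814, 908 and 816 CPM in the 6-week libraries. The groups did not overlap, and 3 of the older libraries lay between 469 and 494 CPM while library IV stood higher. Means were 529 ± 99.1 CPM at 26 weeks and 857 ± 49.3 CPM at 6 weeks (SD, n = 4 each), at ranks 63 and 54. By edgeR's quasi-likelihood test mir-454 fell by 0.70 ± 0.16 on the log2 scale (SE, 95% interval -1.06 to -0.33, Benjamini-Hochberg adjusted p = 0.0179). Leaving out the 6-week library II, the 6-week III or the 6-week IV ended the call (log2 -0.60, -0.62 and -0.60, edgeR, Benjamini-Hochberg adjusted p = 0.0694, 0.0522 and 0.0664), as did leaving out the 26-week library II (log2 -0.53, adjusted p = 0.0667). Lower calls became rarer over all features too, at 0.901%, 2.34%, 0.901% and 1.38% in these fits, against 3.77% with all libraries. Because the older libraries were deeper, a fit that adjusts for the log2 total was also made, in which mir-454 kept its size (log2 -0.71) and not its call (adjusted p = 0.123). That fit called 0 of the 212 features lower. In bulk tissue such as this, fewer cells of a type and less RNA per cell cannot be told apart.

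Of the 3 members, 1 was called lower and 0 higher, and the background in the same edgeR test was 8 lower calls among 212 features (3.77%) and 22 higher calls (10.4%). At an unadjusted p under 0.05 there were 2 members, mir-301 and mir-454, against 29.2% of all features, and DESeq2 and limma-voom each called 1 member lower as well, against 4.72% and 3.77% of all features. A fit that blocks on the library number called 59 features (27.8%), 24 of them lower (11.3%), and in it mir-454 stayed called (edgeR, Benjamini-Hochberg adjusted p = 0.0149) and mir-301 did not pass (adjusted p = 0.0698). Groups that did not overlap with the older libraries lower were found for 2 members and for 16 of all tested features (7.55%). The median log2 fold change was -0.33 over the members and -0.06 over all tested features. Ordered from the lowest fold change, mir-454 was at place 40, mir-301 at 72 and mir-130 at 135 of 212.

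**Figure D2:**
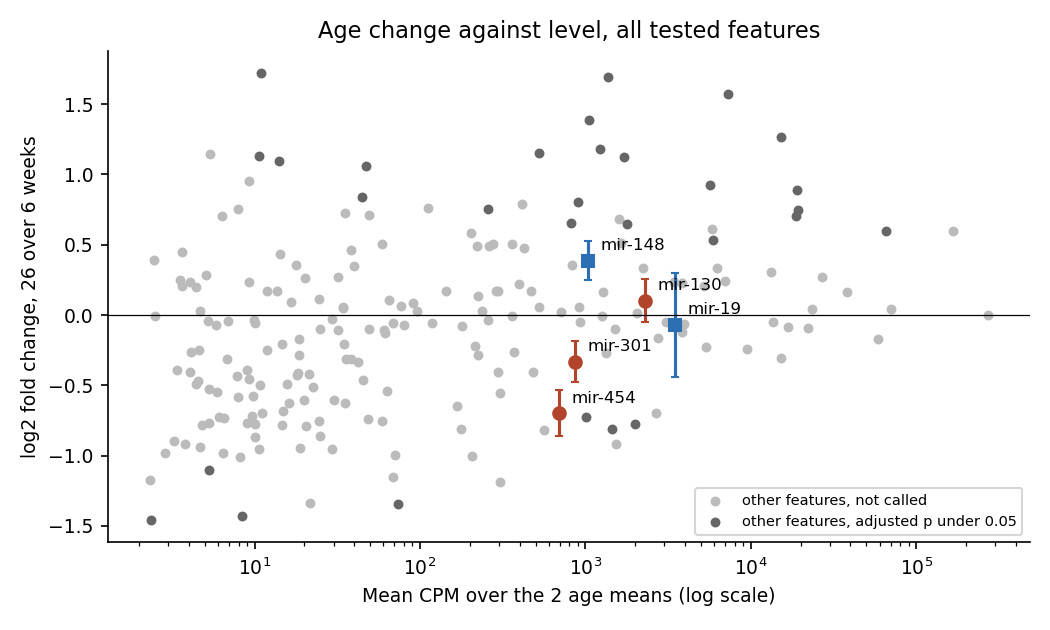
Log2 fold change (26 over 6 weeks) against mean CPM (log axis) for the 212 tested features, with grey points for other features, darker where the adjusted p was under 0.05. The 3 members (red circles, bars are SE) spread from -0.70 for mir-454 to 0.10 for mir-130, and mir-148 and mir-19 (blue squares) are families with overlapping seed letters.

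The choice of scaling moved all members together. The median log2 change across the 212 tested features was -0.06 with TMM, -0.29 with total counts and -0.24 with upper-quartile factors. Relative to that median, mir-454 was at -0.64 with TMM, -0.63 with total counts and -0.64 with upper-quartile factors. On the same relative scale mir-301 stood at -0.27, -0.28 and -0.28, and mir-130 at 0.16 under each of the 3 scalings. A scaling factor moves all features of a library alike, so distances between members and from the median are kept by construction, and only the place of zero moves.

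Libraries with the same number could be set side by side, since their deviations from the age means went together. For mir-454, the CPM at 26 weeks was 0.534-fold, 0.577-fold, 0.544-fold and 0.8293-fold of that at 6 weeks for the numbers I to IV. For mir-301 the same folds were 0.689, 0.739, 0.895 and 0.849, so both families were lower at 26 weeks in 4 of 4 pairs, which groups that do not overlap make necessary. For mir-130 they were 1.04, 1.04, 0.944 and 1.28. The number IV gave the smallest drop for mir-454 and the largest gain for mir-130.

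The 26-week library IV held the highest level of every member among the older libraries, and the 26-week library I the lowest of mir-130 and mir-301. At 6 weeks library I was again the lowest for mir-130 and mir-301, and it was second highest for mir-454. No 6-week library was highest for every member: library III was highest for mir-130 and mir-454, and library IV for mir-301. The SD of log2 CPM within an age was 0.23 at 26 weeks and 0.19 at 6 weeks for mir-130, 0.21 and 0.09 for mir-301, and 0.25 and 0.08 for mir-454 (n = 4 each). For mir-454 the wider spread at 26 weeks came from library IV alone, the other older libraries lying between 8.87 and 8.95 on the log2 CPM scale.

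Ratios between members within a library need no scaling, because depth and library composition divide out. The ratio of mir-454 to mir-130 was 0.244, 0.202, 0.204 and 0.237 in the 26-week libraries I to IV, against 0.475, 0.366, 0.354 and 0.367 in the 6-week libraries. The ages were far apart, and the 6-week library I stood above its group. The mean log2 ratio was -2.18 ± 0.14 at 26 weeks and -1.37 ± 0.20 at 6 weeks (mean ± SD, n = 4 each). The difference of -0.81 ± 0.12 (SE) means that the ratio was 0.570-fold at 26 weeks (exact two-sided permutation p = 0.0286, n = 4 each, a value no split of 4 against 4 can undercut).

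For mir-454 over mir-301, the ratio was 0.758, 0.628, 0.598 and 0.7696 in the 26-week libraries, against 0.979, 0.805, 0.984 and 0.788 in the 6-week libraries. The groups came close to each other in libraries numbered IV and did not overlap. The difference in log2 ratio was -0.37 ± 0.13 (SE, exact permutation p = 0.0286, n = 4 each), with a mean of -0.55 ± 0.19 at 26 weeks and -0.18 ± 0.17 at 6 weeks (SD).

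For mir-301 over mir-130, the ratio was 0.322, 0.322, 0.341 and 0.308 in the 26-week libraries, against 0.486, 0.455, 0.36 and 0.466 in the 6-week libraries. The older libraries were close together, and the 6-week library III lay next to them. The difference in log2 ratio was -0.44 ± 0.10 (SE, exact permutation p = 0.0286, n = 4 each), with a mean of -1.63 ± 0.06 at 26 weeks and -1.19 ± 0.19 at 6 weeks (SD).

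The Benjamini-Hochberg adjusted p over the 3 ratios was 0.0286 for each (exact permutation, n = 4 each). The 3 ratios are not independent, since any pair of them fixes the other. Ratios whose ages do not overlap were common in these libraries, at 4253 of the 22366 pairs of tested features (19.0%).

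**Figure D3:**
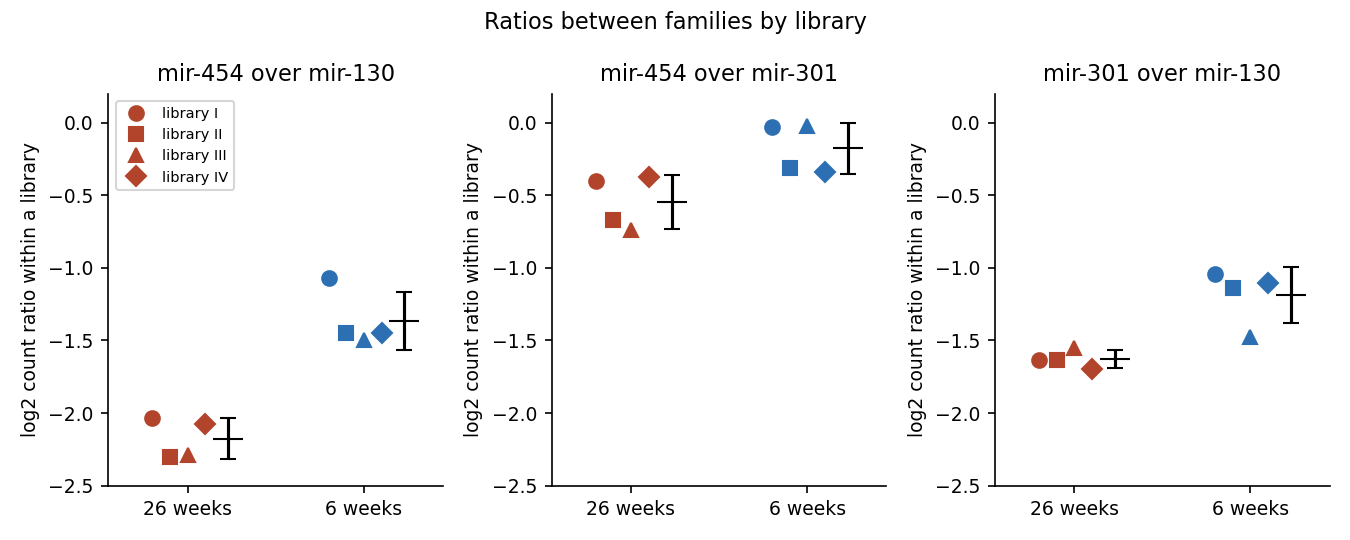
Log2 ratio of the counts of 2 families within a library (same axis in each panel) for the 4 libraries at 26 weeks (left, red) and the 4 at 6 weeks (right, blue), with the mean ± SD in black. In each panel all 26-week libraries lie below all 6-week libraries, and the widest separation is that of mir-454 over mir-130, at -2.18 and -1.37.

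The make-up of the seed group shifted towards mir-130. Of the counts of the 3 families, mir-130 took 64.7 ± 0.706% at 26 weeks and 54.7 ± 3.0% at 6 weeks (mean ± SD, n = 4 each). The share of mir-301 was 20.9 ± 0.911% at 26 weeks and 24.0 ± 2.04% at 6 weeks, with libraries of the ages overlapping. The share of mir-454 was 14.4 ± 1.28% at 26 weeks and 21.3 ± 2.01% at 6 weeks. The kit favours some sequences in ligation and amplification, so these shares describe counts and compare better between libraries than between families.

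The order of the members by counts, subject to the same limits, mir-130 above mir-301 above mir-454, held in 8 of 8 libraries. The difference between mir-301 and mir-454 was within counting error in 2 of the 6-week libraries. In the 6-week library I they took 24.8% (95% Wilson interval 24.0 to 25.5%) and 24.2% (23.5 to 25.0%) of the group's counts. In the 6-week library III these shares were 21.0% (20.4 to 21.6%) and 20.7% (20.1 to 21.3%).

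**Figure D4:**
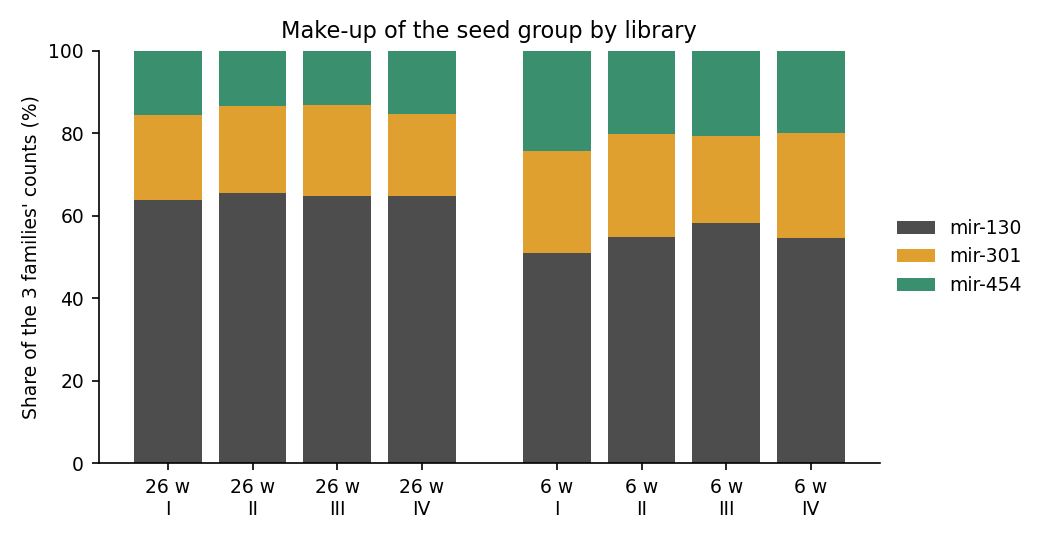
Share (%) of the summed counts of the 3 families held by mir-130 (grey), mir-301 (yellow) and mir-454 (green) in each library, with the 26-week libraries I to IV left of the 6-week libraries I to IV. The part of mir-130 is 63.9 to 65.6% in the older libraries and 51.0 to 58.3% in the younger ones.

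Summed over the members, the seed group held 3048, 3533, 3738 and 4407 CPM in the 26-week libraries I to IV, against 3671, 4045, 4392 and 4072 CPM in the 6-week libraries. The groups overlapped, through the 26-week library IV, which had the highest sum of all. Means of the sum were 3681 ± 564 CPM at 26 weeks and 4045 ± 295 CPM at 6 weeks (SD, n = 4 each), and the sum was not tested. As a plain share of library counts the sum was 0.339 ± 0.0326% at 26 weeks and 0.436 ± 0.00982% at 6 weeks (mean ± SD, n = 4 each), and there the highest older library (0.382%) was below the lowest younger one (0.427%). With library totals as the only scaling, the middle one of the 212 features was itself at -0.29 (log2, 26 over 6 weeks). A lower share was therefore not particular to this group. How many other features kept the ages apart in their shares was not counted. The mean of the sum was thus lower by both measures, and whether the ages overlapped in it depended on the scaling. The make-up of the group does not depend on the scaling.

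A few families outside the group carry seeds whose letters overlap with that of miR-130 when shifted by a base. Of 3 such families listed (mir-19, mir-148 and mir-152), 2 were tested, and mir-152 had no row of its own in the count table. The family mir-148, known in human cells for targeting the DNA methyltransferase DNMT3B, held 1147, 1131, 1020.4 and 1429 CPM in the 26-week libraries, against 884, 887, 935 and 910.2 CPM in the 6-week libraries. Its older libraries all lay above its younger ones, as did those of 14.2% of all tested features. Its log2 fold change of 0.39 ± 0.14 (SE) did not pass edgeR's test (Benjamini-Hochberg adjusted p = 0.107). It passed DESeq2 (Benjamini-Hochberg adjusted p = 0.00951) and, in edgeR, without the 26-week library III (log2 0.53, adjusted p = 0.0295). Those 2 fits called 13.2% and 11.5% of all features higher. The family mir-19, part of the miR-17-92 cluster, held 1381, 2722, 4117 and 5376 CPM in the 26-week libraries, against 3039.9, 2754, 4743 and 3732 CPM in the 6-week libraries. It was too variable among the older libraries to show a change of moderate size (log2 -0.07 ± 0.37, 95% interval -0.91 to 0.77, adjusted p = 0.939), and its sign turned with 4 of the 8 libraries left out. By edgeR, 0 of the 2 tested families were called and 1 had an unadjusted p under 0.05, against 14.2% and 29.2% of all features.

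The miR-17-92 cluster and its paralogues, linked to cell proliferation, served as another list, which holds mir-19 as well. Of 9 listed families only 4 had a row in the count table, and all 4 were tested. By edgeR, DESeq2 or limma-voom 0 were called, against 14.2%, 17.9% and 14.6% of all features. In each, 1 had an unadjusted p under 0.05, beside 29.2% of all features in edgeR. The smallest p were those of mir-25 (log2 0.33 ± 0.14, SE, edgeR, Benjamini-Hochberg adjusted p = 0.145) and mir-92 (-0.31 ± 0.15, adjusted p = 0.209). The list's median log2 fold change was -0.04, close to the -0.06 of all tested features.

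Some markers of cell types in the brain differed between the ages as well. In the edgeR test 22 of all 212 tested features (10.4%) were called higher. Of the oligodendrocyte families, which promote myelination, mir-338 and mir-219 both rose (log2 1.26 ± 0.12 and 1.39 ± 0.28, SE, edgeR, Benjamini-Hochberg adjusted p = 2.79e-04 and 0.0126). Their summed level was 18661 to 26728 CPM at 26 weeks and 8817 to 10347 CPM at 6 weeks. Of the erythroid pair, mir-451 rose (1.15 ± 0.17, adjusted p = 0.00326) and mir-144 was at 0.06 ± 0.16, with summed levels of 1152 to 1311 CPM at 26 weeks and 754 to 973 CPM at 6 weeks. These 2 sums did not overlap between the ages, and single features with all older libraries higher made up 14.2% of all tested features. The same share was not counted for sums.

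Of 6 families of microglia and leucocytes 3 rose, mir-142, mir-223 and mir-150 (log2 0.75 ± 0.17, 1.06 ± 0.25 and 0.84 ± 0.23, SE, edgeR, Benjamini-Hochberg adjusted p = 0.0179, 0.0205 and 0.0394). For this list and the others below, the share of all features called higher in the same test was 10.4%. The call of mir-150 was lost when the 6-week library II, the 6-week III or the 6-week IV was left out (adjusted p = 0.0693, 0.0716 and 0.0646), and with total counts all 3 of these calls and those of mir-219, mir-124 and mir-139 were lost, with the same directions (adjusted p from 0.0576 to 0.144). The other 3 families of the microglia and leucocyte list did not pass: mir-155 was at 0.45 ± 0.48, mir-146 at -0.04 ± 0.33 and mir-21 at -0.09 ± 0.16. Most of the list's level was that of mir-21, with means of 16203 CPM at 26 weeks and 17226 CPM at 6 weeks. The sum of the list was 12209 to 18992 CPM at 26 weeks and 14777 to 19273 CPM at 6 weeks. Among 11 tested neuron-enriched families 3 rose, mir-124, mir-132 and mir-139 (log2 0.92 ± 0.21, 0.70 ± 0.14 and 0.64 ± 0.15), and the other 8 did not pass. Above 0 were mir-153 (0.30 ± 0.13), mir-129 (0.23 ± 0.14), mir-7 (0.06 ± 0.44) and mir-9 (0.05 ± 0.12). Below 0 were mir-138 (-0.24 ± 0.12), mir-128 (-0.17 ± 0.09), mir-218 (-0.10 ± 0.21) and mir-137 (-0.05 ± 0.13). The neuron-enriched median was 0.06, beside -0.06 over all tested features, and the sums overlapped, at 183083 to 200387 CPM at 26 weeks and 171798 to 190339 CPM at 6 weeks. With upper-quartile factors 0 of the 11 were called, so mir-132 was lost there too (edgeR, 5 at an unadjusted p under 0.05). In that setting 7.08% of all features were called higher. A fit that adjusts for the log2 total called 1.89% of all features higher (edgeR). It left 0 calls in the neuron-enriched, erythroid, and microglia and leucocyte lists, with 3, 1 and 4 families at an unadjusted p under 0.05. Both calls in the oligodendrocyte list were kept. For this fit and for upper-quartile factors, the share of all features at an unadjusted p under 0.05 was not counted. Of 3 vessel wall families 0 were called by edgeR and 2 had an unadjusted p under 0.05, against 29.2% of all features. DESeq2 and limma-voom each called 1 of the 3 higher, against 13.2% and 10.8% of all features. Among the vessel wall families mir-126 was at 0.61 ± 0.24 and mir-145 at 0.58 ± 0.18. Both were called with the library number as a block, where 16.5% of all features were called higher. The sum of the vessel wall list was 10663 to 18556 CPM at 26 weeks and 9022 to 13193 CPM at 6 weeks. No marker was at 0 in any library, the lowest being 4 counts of mir-155 in the 6-week library IV. The part of these shifts in the fall of mir-454 was not tested.

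Profiles over the 8 libraries were compared by the root mean square difference of log2 CPM after each profile was centred on its own mean. The profile of mir-130 was nearest to those of the abundant families mir-221 (difference 0.0775), mir-103 (0.0923) and mir-30 (0.134). The profile of mir-301 was nearest to mir-16 (0.141), mir-203 (0.156) and pred_552 (0.157). The profile of mir-454 was nearest to mir-216 (0.127) and mir-217 (0.203), which are neighbours in vertebrate genomes, and to pred_503 (0.211). All of these share the libraries and their scaling. The lists were alike with RLE factors and with total counts, which is no check, since a scaling factor moves all profiles alike.

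The places of the members in each other's order of likeness differed. Seen from mir-454, mir-301 was at place 4 of 211 other features, and mir-130 was at place 61. Seen from mir-130, mir-301 was at place 41 and mir-454 at place 102. Seen from mir-301, mir-454 was at place 25 and mir-130 at place 27. Without both libraries numbered I, mir-130 kept 1 of its 3 nearest features (mir-221), mir-454 kept 1 (mir-216) and mir-301 kept 2.

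As their choice by profile makes likely, mir-216 and mir-217 fell by about as much as mir-454, at -0.81 ± 0.16 and -0.73 ± 0.18 on the log2 scale (SE, edgeR, Benjamini-Hochberg adjusted p = 0.0126 and 0.0212). Leaving out the 6-week library IV ended the call of mir-216 (adjusted p = 0.0528), and leaving out the 6-week library II or III or the 26-week library II or III ended that of mir-217 (adjusted p = 0.115, 0.0716, 0.0652 and 0.0663). In mir-216 the levels were 1021, 950.2, 903 and 1338 CPM in the 26-week libraries, against 1641, 1763, 2061 and 1938 CPM in the 6-week libraries. The 26-week library IV was the highest of the older ones and the groups did not overlap, as with mir-454. Choosing mir-216 by its profile makes such a likeness probable.

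**Figure D5:**
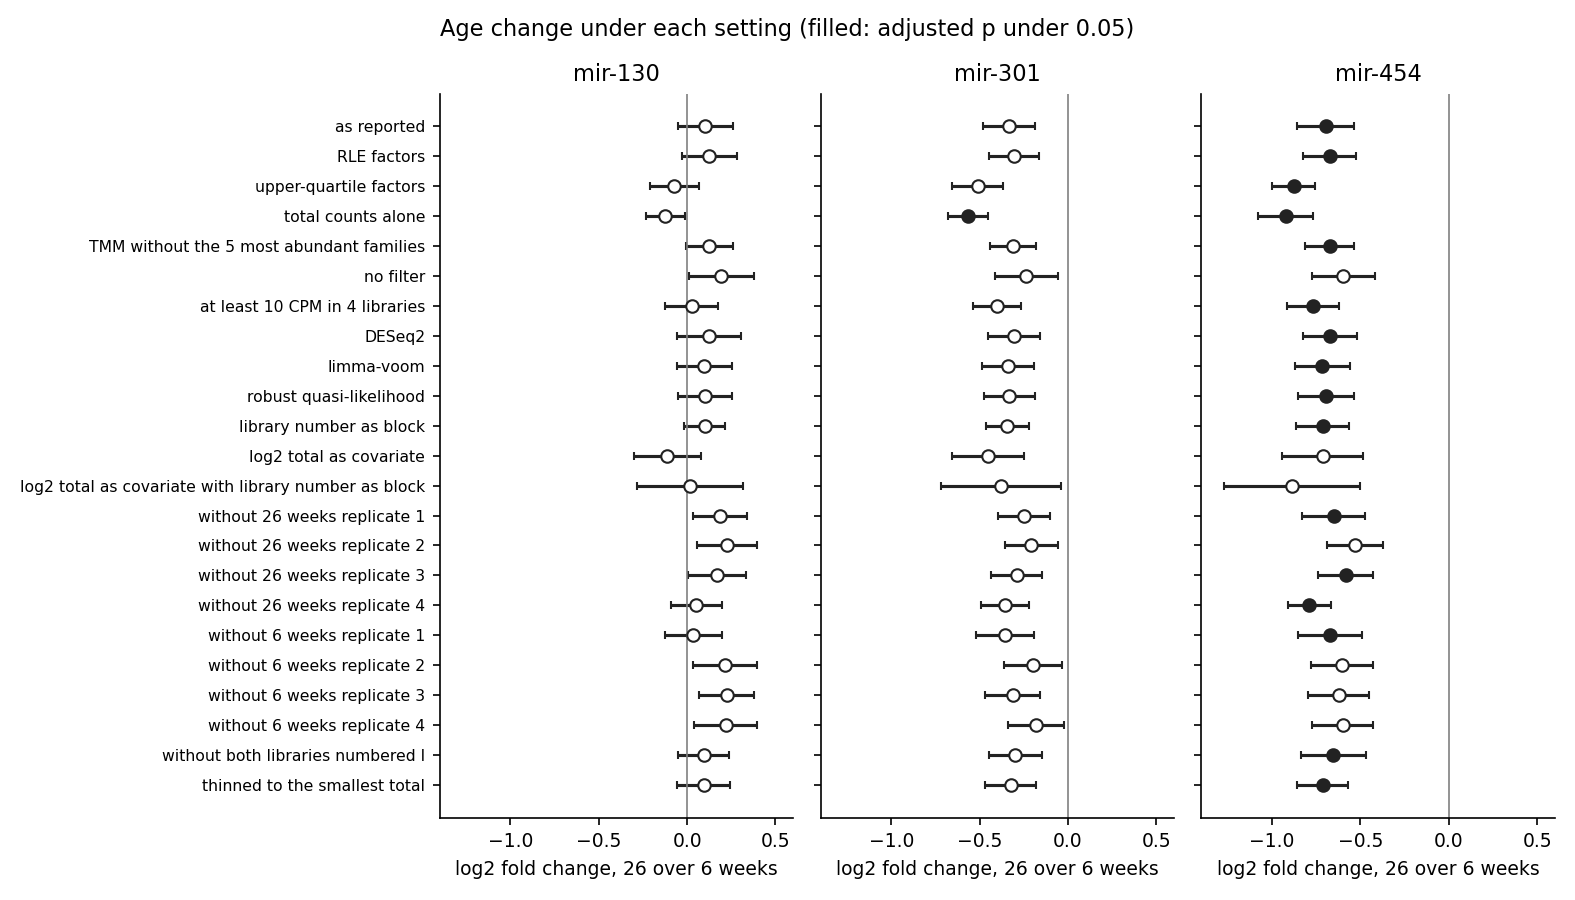
Log2 fold change (26 over 6 weeks, bars are SE) of the 3 families as reported and under each alternative, with filled points where the adjusted p was under 0.05. For mir-454 every point lies between -0.92 and -0.53, for mir-301 every point is below 0, and mir-130 lies on both sides of 0, from -0.12 to 0.22.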

How the data were processed

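The deposited table holds raw counts, whole numbers for each miRNA family or predicted miRNA, in 8 brain libraries (4 at 26 weeks, 4 at 6 weeks). Per the submitters' processing notes, the tools included BWA 0.7.12-r1039, SAMtools 1.3.1-9, Trimmomatic 0.36 and bcl2fastq 1.8.4. Not given in the sources used here: build, annotation, counting tool and handling of multi-mapping reads. Rows carry family names, and how arms and paralogues were combined into them is not stated. Reads of near-identical members could be split between mir-130, mir-301 and mir-454 in unknown ways, and no change of 1 paralogue or arm can be seen.

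The test was edgeR 4.0.16's quasi-likelihood test in R 4.3.3 (TMM, filterByExpr, no covariate, Benjamini-Hochberg over 212 features, threshold 0.05). SE is the log2 fold change over the root of F. A prior count of 2 went into log2 CPM. Features filtered out (112) held 0.00948% of the counts. Ratios between members were tested by exact two-sided permutation over 70 assignments (SciPy 1.17.1), and the background of ratios added 0.5 to each count. Both procedures were tested on simulated data. For the ratios these had almost no spread between libraries, so only the computation was checked. Libraries of an age differed by a chi-square of at least 131 per degree of freedom, so none were near copies.

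Whether the titles' numbers I to IV pair the libraries was checked: deviations from the age means correlated by 0.287 to 0.528 between same-numbered libraries, each above the limit of 0.1, against at most 0.234 otherwise. What a number stands for is not stated. Members, lists and tests were chosen with earlier results of these data known. Named were the members, the 3 features with the profile most like each and the tested families with overlapping seed letters. Of each other list the 2 with the smallest p were named, or up to 4 if called. Beyond this rule the other tested families of the neuron-enriched list and of the microglia and leucocyte list were named, after their values were seen. Alternatives were scaling by total counts, RLE, upper quartiles or TMM leaving out the 5 most abundant families, no filter, at least 10 CPM in 4 libraries, DESeq2 1.42.0, limma-voom (limma 3.58.1), robust fitting, the number as a block, the log2 total as a covariate, thinning to 2992917 counts, leaving out libraries, and an adjusted p of 0.1.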

Additional observations from a re-analysis of the deposited data

Results flagged for a closer look

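In 62 groups of 4 libraries, 4 had a library that lay farther from its neighbour than Dixon's critical value allows, and chance gives about 1 in 20. The groups were the log2 CPM, without a prior count, of each feature named by the rule and each ratio, at each age. For mir-454 the 26-week library IV was at a log2 CPM of 9.40 against 8.87 to 8.95 in the other older libraries. Without that library the log2 fold change was -0.79 (edgeR, Benjamini-Hochberg adjusted p = 0.00747). The log2 ratio of mir-454 to mir-130 was -1.07 in the 6-week library I against -1.5 to -1.45 in the other younger libraries, and without that library the age difference was -0.71. Beyond the members, mir-124 was at 13.41 in the 26-week library III against 12.58 to 12.65, and mir-150 at 5.47 in the 6-week library I against 4.75 to 4.87.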

How the results depend on the processing

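The sign of mir-454 and of mir-301 was kept in 23 of 23 alternatives. Their log2 fold changes ran from -0.92 to -0.53 and from -0.57 to -0.18. Of these alternatives, an adjusted p of 0.1 uses the main fit and could not turn a sign, and robust fitting gave the same log2 fold changes. The ages did not overlap for either family, so leaving out libraries or thinning could hardly turn a sign. The adjusted p of mir-454 ran from 1.91e-04 (DESeq2) to 0.423, and its call was lost with no filter (log2 -0.60, edgeR, Benjamini-Hochberg adjusted p = 0.0693), with the log2 total as a covariate (-0.71, adjusted p = 0.123) and with that covariate and the block (-0.89, adjusted p = 0.423). Leaving out 1 library gave -0.79 to -0.53 for mir-454. With total counts mir-301 passed (-0.57), and mir-130 turned to -0.074 with upper-quartile factors, -0.12 with total counts and -0.11 with the log2 total as a covariate; the cause was not tested.

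Calls over all features numbered 30 (22 higher, 8 lower), against 59 (35 and 24) with the replicate block, 50 (30 and 20) without both libraries numbered I, 4 (4 and 0) with the log2 total as a covariate, and 0 (0 and 0) with that covariate and the block. Without a filter 3 were lower. Leaving out 1 library gave 23 to 47 calls, 21 to 29 higher and 2 to 18 lower. The block changed no call of a member.

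Exact permutation tests of the ratios cannot go below 0.0571 with 4 against 3 libraries, 0.1 with 3 against 3 and 0.125 with 4 pairs, so these alternatives show sizes only. With 1 library left out the log2 difference ran from -0.86 to -0.71 for mir-454 over mir-130, -0.43 to -0.31 for mir-454 over mir-301 and -0.54 to -0.39 for mir-301 over mir-130. Without both libraries numbered I they were -0.76, -0.37 and -0.39, and as paired differences in the replicate block -0.81, -0.37 and -0.44. Thinning changed no call, and neither did adding 0.5, which can hardly move ratios of counts of at least 1769.

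Other signs that turned belong to changes that did not pass. With upper-quartile factors mir-221 was at -0.00811 and mir-144 at -0.12; with total counts mir-221 was at -0.058, mir-103 at -0.028 and mir-144 at -0.16; with the log2 total as a covariate mir-221 was at -0.027 and mir-103 at -0.045, and mir-103 at -0.057 with the block added. Without a filter mir-30 was at 0.048 and mir-19 at 0.019, and without both libraries numbered I mir-19 was at 0.089. With 1 library left out mir-30 ran from -0.072 to 0.092, mir-203 from -0.18 to 0.047 and mir-19 from -0.34 to 0.19. The protocol names no molecular identifiers, so depth bounds counting error only.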
